A study of Mus musculus with 4 samples.

Results

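*Adipoq*, *Lep* and *Retn* encode adiponectin, leptin and resistin, hormones that adipocytes release into the blood. Every region of the deposited m6A comparison table whose overlapping gene is 1 of these 3 was taken, which gave 4 regions among the 9243 listed: 2 in *Adipoq*, 1 in *Lep* and 1 in *Retn*. Adiponectin acts through receptors on liver, muscle and other cells and raises insulin sensitivity, leptin reports fat stores to the hypothalamus and lowers food intake, and resistin of the mouse adipocyte opposes insulin action. White adipocytes make far more leptin than thermogenic brown adipocytes do. m6A is a methyl mark that a complex of METTL3 and METTL14 places on adenosines of mRNA, most often near the stop codon and in the 3′-UTR, where reader proteins bind it and change the stability or translation of the transcript.

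The study set interscapular brown adipose tissue (iBAT) of *Mettl3* flox/flox mice against that of BKO mice (*Mettl3* flox/flox UCP1-iCre). Both genotypes were C57BL/6 mice on normal chow, 8 weeks of age, with both *Mettl3* alleles floxed, and the iCre of BKO mice is expressed from the *Ucp1* locus, so cells of iBAT that never express *Ucp1* keep *Mettl3*. Each genotype had 1 library of fragments captured with an m6A antibody (IP) and 1 of the poly(A)+ RNA before capture (input), each from RNA pooled from 5 mice. Neither a wild-type nor a Cre-only library was analysed here.

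The read totals implied by the table ran from 8309096 to 13687384 per library, both flox/flox libraries being the shallower, and listed regions held 48.4% of flox/flox IP reads against 28.7% of BKO IP reads. Levels are given as RPM, the count plus 1 scaled to the reads of its library in the usual way, and the fold enrichment is IP RPM over input RPM. With 1 library per genotype and kind there is no replicate spread and no p-value. The 95% intervals below cover counting error only and treat 2 reads as 1 fragment, since 77.2 to 92.5% of counts between 1 and 20 were even. *Mettl3* itself had no listed region, so the deleted gene gives no check of the labels, and every listed region had more IP than input RPM in each genotype, which leaves out regions without enrichment. All 4 adipokine regions were called as peaks in both genotypes, as were 38.2% of all regions.

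The m6A enrichment of the adipokine transcripts was lower in BKO iBAT in both regions at the 3′ end and close to equal in both regions over the 5′-UTR. It was at least 2-fold lower in 2 of 4 regions, against 50.8% of all regions, and in none of the 4 at least 2-fold higher, against 18.6%. These counts depend on the scaling: with the median log2 ratio of all regions (-1.05) subtracted, 1 region was at least 2-fold lower (*Adipoq* last exon, -1.07), *Lep* was at -0.96, and 2 were at least 2-fold higher (*Adipoq* 5′ region, 1.22, and *Retn*, 1.12). The shares of all regions given above are without this subtraction, and none was computed with it. The regions with lower enrichment were the last exon of *Adipoq* and the 3′-UTR of *Lep*, and those without were the 5′ regions of *Adipoq* and *Retn*.

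The last-exon region of *Adipoq* (ENSMUSG00000022878, chromosome 16, 23157107 to 23157934 in GRCm38) began in the last exon and ended in the 3′-UTR by the authors' labels, 94 bases before the end of the gene. The last exon of this gene carries most of the coding sequence and the stop codon. It held 36579 IP and 6688 input reads in flox/flox iBAT, and 23548 IP and 17280 input reads in BKO iBAT. Scaled to library size, the IP went from 4402 to 1720 RPM while the input went from 758 to 1290 RPM. By library total, the captured RNA was thus lower and the RNA before capture higher in BKO iBAT. Once inputs were centred on the median region, its log2 input ratio was -0.034, so the higher input does not hold under that scaling. By quantitative PCR the paper reports the other direction, with adiponectin mRNA strongly decreased in BKO mice. In bulk tissue, more cells of a type and more RNA per cell cannot be told apart. Fold enrichment was 5.81 (5.60 to 6.03) in flox/flox iBAT but 1.33 (1.30 to 1.37) in BKO iBAT, a 4.36-fold lower value (4.16 to 4.56) and a log2 ratio of -2.12 (-2.19 to -2.06). It is the IP log2 ratio of -1.36 less the input log2 ratio of 0.77. Its flox/flox enrichment was close to the median of 5.85 over the 2290 last-exon regions, whereas in BKO iBAT it was below their median of 2.96, with 11.7% of last-exon regions lower still.

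This was among the most abundant regions of the table. Per kb of region, only 3 of 9243 regions had a higher level in the IP of flox/flox iBAT and 4 in that of BKO iBAT. For the input the numbers were 10 and 5. It alone took 0.440% of all flox/flox IP reads and 0.172% of BKO IP reads. The counting error is accordingly small, and what it leaves out, the difference between mice and between captures, is not measured by these libraries.

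The second region of *Adipoq* (23155175 to 23155407) began in intron 1, had its center in the 5′-UTR and ended in exon 2, which places it where translation of adiponectin starts. Counts were 1222 IP and 1038 input reads in flox/flox and 5792 IP and 4024 input reads in BKO iBAT, or 147 (IP) and 118 RPM (input) against 423 and 301 RPM. Both levels were higher in BKO iBAT by a similar factor, 2.88-fold (2.64 to 3.14) in the IP and 2.55-fold (2.32 to 2.81) in the input. Fold enrichment was therefore nearly equal, 1.25 (1.11 to 1.41) in flox/flox against 1.41 (1.33 to 1.49) in BKO iBAT, and the interval of the log2 ratio of 0.17 reached from -0.02 to 0.36. Had each read been counted as 1 fragment, it would have run from 0.039 to 0.30 and left out 0. Although called as a peak in both genotypes, this region was enriched little in either: 7.26% of all regions had a lower fold enrichment in flox/flox and 13.4% in BKO iBAT.

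**Figure D1:**
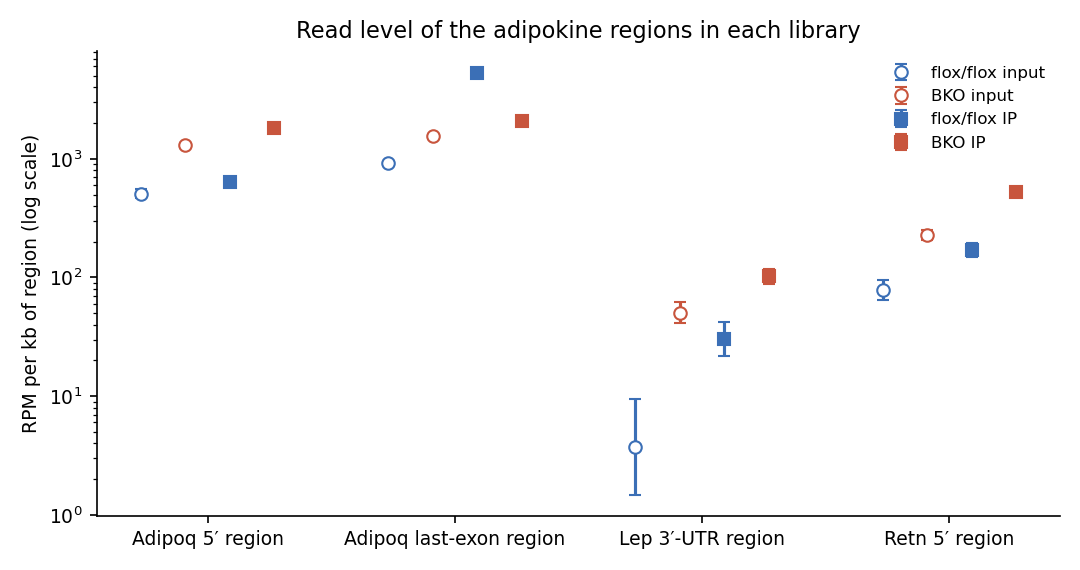
Level of each adipokine region in the 4 libraries as RPM per kb of region (log axis), with open circles for input, filled squares for IP and bars for 95% counting intervals. Only at the last exon of Adipoq was the BKO IP below the flox/flox IP, and at all 4 regions the BKO input was above the flox/flox input.

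Because both regions lie in 1 transcript, their ratio within a library does not depend on how the libraries were scaled. In the flox/flox IP the last-exon region of *Adipoq* held 29.9 times the reads of the 5′ region, and in the BKO IP 4.07 times. The inputs had ratios of 6.44 (flox/flox) and 4.29 (BKO). The excess of the 3′ end that the antibody captured in flox/flox iBAT was hence not detectable in BKO iBAT, where the last-exon region was enriched 0.947 times (0.889 to 1.01) as much as the 5′ region, against 4.65 times (4.11 to 5.25) in flox/flox iBAT. The log2 change of this ratio was -2.29 (-2.49 to -2.10) for enrichment, -2.88 (-3.01 to -2.75) for the IP alone and -0.58 (-0.74 to -0.43) for the input alone. The input of the *Adipoq* transcript was itself less weighted to its 3′ end in BKO iBAT.

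*Adipoq* was typical in this respect of the genes that have a region at each end. Over the 136 genes, *Adipoq* counted, with a region in the 5′-UTR and another in the last exon or 3′-UTR, none shared with a second gene, the median log2 change of the 3′ over the 5′ enrichment was -2.30, and 123 genes were below 0. Over the 48 of them with 20 or more input reads in each region and genotype the median was also -2.30, with 46 below 0, and 24 of the 48 were below *Adipoq*. For the input alone, the median log2 change was -0.52 over the 136 genes, with 84 below 0. Over the 48 it was -0.29, with 28 below 0.

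**Figure D2:**
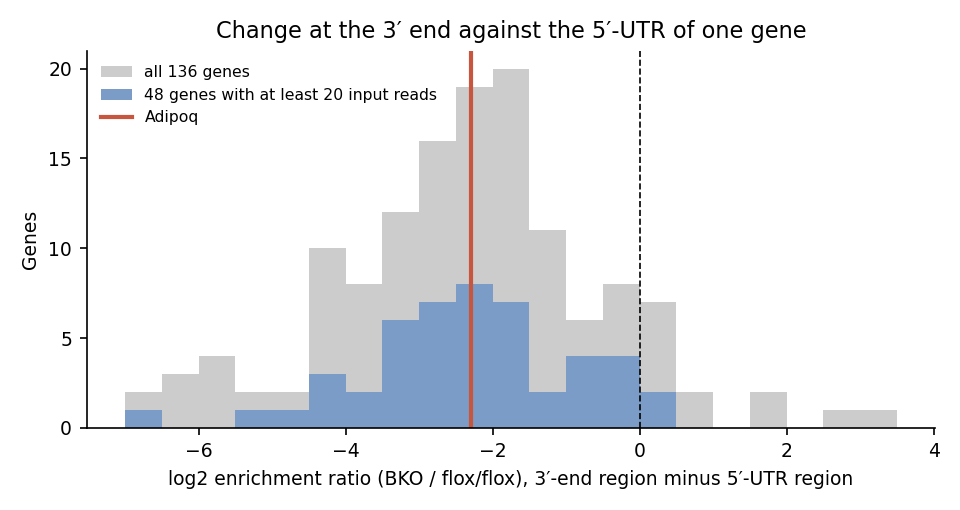
Number of genes (y axis) by the log2 enrichment ratio, BKO over flox/flox, of the 3′-end region minus that of the 5′-UTR region (x axis), for 136 genes (grey) and the 48 with 20 or more input reads in each region and genotype (blue). Adipoq (red line, -2.29) lies at the middle of both distributions, and the dashed line marks equal change at both ends.

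*Lep* (ENSMUSG00000059201) had a single region, wholly in the 3′-UTR (chromosome 6, 29073336 to 29073609, 268 bases before the end of the gene). It held 68 IP and 8 input reads in flox/flox iBAT and 382 IP and 184 input reads in BKO iBAT. The leptin transcript was thus barely sampled in the flox/flox input and clearly present in the BKO input. The input level went from 1.02 to 13.8 RPM, 13.5-fold higher (5.26 to 34.9), and the IP from 8.30 to 28.0 RPM, 3.37-fold higher (2.35 to 4.84). Of all regions, 3.78% had a larger log2 input ratio than the 3.76 of *Lep*, and of the 3′-UTR regions 1.57%. Fold enrichment was 8.14 (3.05 to 21.8) in flox/flox against 2.03 (1.58 to 2.60) in BKO iBAT, a log2 ratio of -2.01 (-3.47 to -0.55). The lower enrichment of *Lep* therefore differs in its parts from that of the *Adipoq* last exon: more *Lep* RNA was captured in BKO iBAT, and the input was higher by more than that. With 8 flox/flox input reads the size of this ratio is poorly known, between 1.46-fold and 11.1-fold lower. Its log2 ratio lay below the 3′-UTR median of -1.44 and its BKO enrichment below the 3′-UTR median of 2.69.

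Since *Lep* had the largest input change of the 3 genes, its promoter was searched for the C/EBP, PPARγ-RXR and CREB motifs named below. Windows were those of RefSeq in GRCm38.p6, from 250 bases before to 50 bases after the start of the gene, on both strands. No motif of the other transcription factors listed further on was searched. All 3 genes had a window. The C/EBP palindrome TTGCGCAA was found once in the window of *Lep*, from 55 to 48 bases before the start, where C/EBPα is known to bind in mouse, and it is shown in capitals within 30 bases of the plus strand (chr6:29060155-29060184).
*Lep* promoter: tggccggacagTTGCGCAAgtggcactggg
Of 32851 such windows, 0.183% hold this motif, and those of *Adipoq* and *Retn* do not. The PPARγ-RXR repeat AGGTCANAGGTCA (0.0396% of windows) and the CREB site TGACGTCA (1.79%) were in none of the 3. These matches are descriptions of sequence and do not show binding.

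*Retn* (ENSMUSG00000012705) also had a single region (chromosome 8, 3655899 to 3656197), which began in intron 1, had its center in the 5′-UTR and ended in intron 2. It lay 129 to 427 bases from the start of the gene. Counts were 419 IP and 204 input reads in flox/flox and 2132 IP and 911 input reads in BKO iBAT. In RPM the IP went from 50.5 to 156 and the input from 23.2 to 68.1, so both were about equally higher in BKO iBAT, 3.08-fold (2.66 to 3.57) and 2.93-fold (2.37 to 3.63). Fold enrichment was 2.18 (1.72 to 2.76) in flox/flox against 2.29 (2.05 to 2.55) in BKO iBAT. The log2 ratio of 0.07 had an interval from -0.30 to 0.45, which leaves room for a 1.23-fold lower or a 1.36-fold higher enrichment. No region over the 3′ end of *Retn* was listed, so no 3′ mark of resistin mRNA can be compared here.

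**Figure D3:**
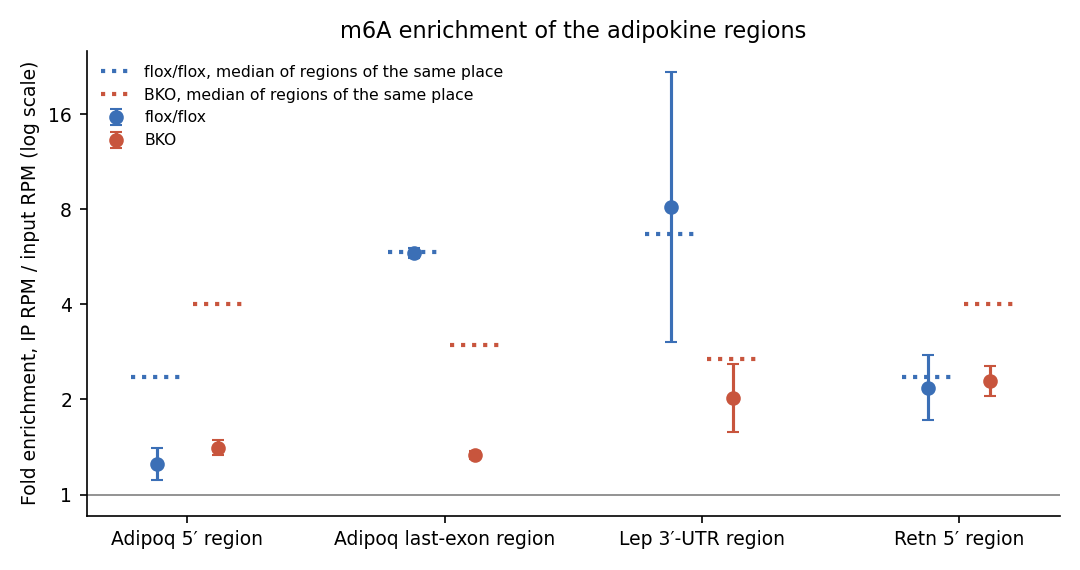
Fold enrichment (IP RPM over input RPM, log axis) of the 4 regions in flox/flox (blue) and BKO iBAT (red), with 95% counting intervals, and dotted lines for the median over all regions of the same place (5′-UTR, last exon or 3′-UTR). The 3′-end regions of Adipoq and Lep were at 5.81 and 8.14 in flox/flox and at 1.33 and 2.03 in BKO iBAT, and the 5′ regions were nearly level.

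The 5′ regions of *Adipoq* and *Retn* share a layout: each starts in intron 1 and centers on the 5′-UTR of the next exon. There were 39 such regions in the table, with a median log2 enrichment ratio of 0.29 (range -2.57 to 2.22), and the 15 of them with 20 or more input reads per genotype had a median of 0.17. Over all 395 regions centered on a 5′-UTR the median log2 enrichment ratio was 0.68, with 18.2% at least 2-fold lower and 40.0% at least 2-fold higher. The 5′ regions of both adipokine genes stood below that median. Their BKO fold enrichments of 1.41 and 2.29 were lower than those of most 5′-UTR regions, whose median was 4.01 in BKO and 2.36 in flox/flox iBAT. Of the 395, 104 were called as peaks in both genotypes, as both adipokine regions were, and no median was taken over the 104 alone.

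All 4 regions had a higher input level in BKO iBAT, against 73.3% of all regions and 86.3% of 5′-UTR regions. Of the 4, 3 were at least 2-fold higher, against 43.2% of all and 62.5% of 5′-UTR regions. The exception was the last exon of *Adipoq* at 1.70-fold (1.64 to 1.77). In the paper's quantitative PCR, adiponectin mRNA was lower in BKO mice. The IP level was at least 2-fold higher in 3 of 4 regions, against 33.7% of all and 75.4% of 5′-UTR regions. It was at least 2-fold lower in 1, against 39.3% of all and 7.34% of 5′-UTR regions. In log2 units the input ratios of the members had a median of 1.45, beside 0.80 over all regions and 0.47 over the 4523 that held 20 or more input reads per genotype. After the median of all regions was subtracted, the input log2 ratio was -0.034 at the last exon of *Adipoq*, 0.55 at its 5′ region, 0.75 for *Retn* and 2.96 for *Lep*. The higher input at the last exon of *Adipoq* thus depends on the scaling between libraries, whereas the input ratios of the other 3 regions stayed above that of the median region. Among 5′-UTR regions, whose median log2 input ratio was 1.42, the 5′ regions of *Adipoq* (1.35) and *Retn* (1.55) lay near the middle.

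Markers of other cell types moved with the input too. Each marker gene was read at its most enriched region only. The summed input of the skeletal muscle genes with a region (*Myh1*, *Myh4* and *Tnnc2*, 3 of 6 listed) went from 6.00 RPM in flox/flox to 244 RPM in BKO iBAT. That of 2 of 4 fibroblast genes went from 86.1 to 276 RPM and that of 3 of 5 macrophage genes from 8.50 to 32.2 RPM, while 3 endothelial genes went from 214 to 131 RPM, through *Cdh5* (183 to 89.5 RPM), as *Kdr* (23.2 to 27.4 RPM) and *Pecam1* (6.91 to 14.0 RPM) were higher. Brown adipocyte genes (6 of 9) summed to 492 and 473 RPM, with 4 lower and 2 higher. *Ucp1* went from 229 to 216 RPM, *Cox8b* from 149 to 164 and *Kcnk3* from 103 to 88.6, while *Dio2* went from 9.97 to 3.51 RPM. The regions of *Cidea* and *Prdm16* held only 6 and 2 flox/flox input reads. General adipocyte genes (5 of 8) summed to 614 RPM in flox/flox and, in the latter genotype, BKO, to 946 RPM. Most of the latter difference was in *Fabp4*, the fatty acid binding protein gene (28.5 to 305 RPM). *Lpl* (162 to 235 RPM) and *Plin1* (2.61 to 15.6 RPM) were also higher, whereas the lipase gene *Lipe* went from 226 to 196 RPM and the lipid droplet gene *Cidec* from 195.2 to 194.5 RPM. White adipocyte genes (4 of 8: *Lep*, *Retn*, *Nnat* and *Agt*) summed to 27.8 and 88.2 RPM, mostly *Retn*. *Nnat*, a transcript of white adipocytes that is also made in nerve and endocrine cells, had a log2 input ratio of 2.34 (0.60 to 4.07), on 5 flox/flox reads in an intron region over 2 genes, and *Agt*, the angiotensinogen gene, one of 0.04. The part of tissue make-up in the adipokine input levels was not tested. Genes without a listed region, such as *Elovl3*, *Ppargc1a*, *Acta1* and *Hoxc9*, are not thereby shown to be unexpressed.

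**Figure D4:**
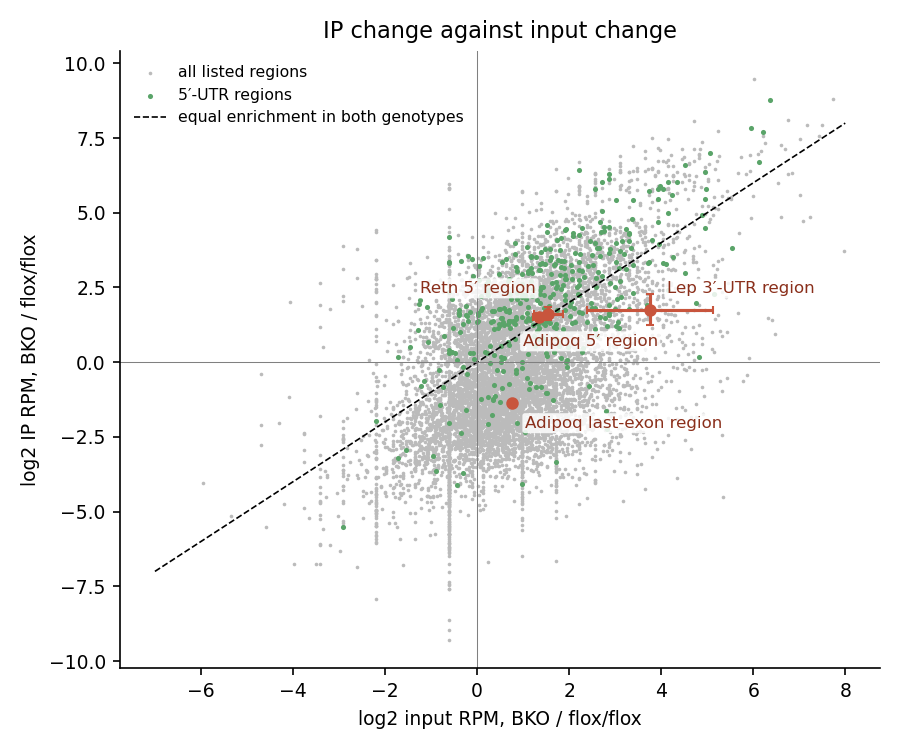
Each listed region (grey; 5′-UTR regions green) by its log2 input ratio (x axis) and log2 IP ratio (y axis), BKO over flox/flox, with the 4 adipokine regions in red and their 95% counting intervals. The 5′ regions of Adipoq and Retn sit on the dashed line of equal enrichment, Lep lies below it at a high input ratio of 3.76, and the last exon of Adipoq lies below it with a negative IP ratio of -1.36.

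The regions most like those of the adipokine genes were sought by the distance over 3 values, the log2 fold enrichment in each genotype and the log2 input ratio, among 3381 regions over 1 gene, each with 20 or more input reads per genotype. *Lep* was too shallow for this. Nearest to the last exon of *Adipoq* were regions of *Hmox2* (exon 4, distance 0.11), which encodes the constitutive heme oxygenase, *Leng1* (3′-UTR, 0.11) and *Serping1* (3′-UTR, 0.15), the C1 inhibitor. Nearest to its 5′ region were *Sod3* (5′-UTR, 0.29), the extracellular superoxide dismutase, *Son* (exon 9, 0.33), a splicing cofactor gene, and *Itgb5* (exon 10, 0.34), an integrin subunit gene. Nearest to *Retn* were last-exon regions of *Fbxl5* (0.08), which encodes an iron-sensing ubiquitin ligase subunit, *Tle3* (0.16), which encodes a corepressor active in adipocytes, and the tRNA synthetase gene *Eprs* (0.19). A likeness over 3 values from single libraries is a description of these libraries only.

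The receptors and adaptors through which the hormones act gave few regions. Of 9 genes, 5 had a region, all 5 with a lower enrichment ratio (against 70.3% of 6192 genes, each at its most enriched region) and 2 of them at least 2-fold lower (against 56.0%), and 3 of the 5 intervals included 0. With the median of all regions subtracted, 2 were lower and 3 higher. *Adipor2*, an adiponectin receptor, had a log2 ratio of -3.51 (-5.86 to -1.17) at an intron 1 region with 6 input reads in each genotype, while its 3′-UTR region, with 576 and 1536 input reads, had one of -0.38 (-0.63 to -0.14). *Appl1*, the adaptor that binds both adiponectin receptors, had one of -3.11 (-4.87 to -1.35), with fold enrichments of 43.0 and 4.99. For *Tlr4* (-0.85, -2.12 to 0.41) and *Cap1* (-0.14, -1.55 to 1.27), which encode proteins reported to bind human resistin, the intervals included 0, as did that of *Insr*, the insulin receptor gene (-0.38, -0.80 to 0.04). *Adipor1*, *Cdh13*, *Appl2* and the leptin receptor gene *Lepr* had no listed region.

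Genes of leptin signalling were split. Of 11 genes 7 had a region, 4 with lower and 3 with higher enrichment (against 29.7% of all genes), and the median log2 ratio was -0.30, beside -1.31 over all genes. *Socs3*, the feedback inhibitor of the leptin receptor, was higher by 2.06 (0.92 to 3.20), from a fold enrichment of 1.52 to 6.35, on 22 and 153 input reads. *Irs2*, an insulin receptor substrate, was lower at -2.13 (-2.76 to -1.50), and so were *Jak2*, the kinase of the leptin receptor (-2.63, and -0.80 with an interval of -1.75 to 0.16 at its deeper last-exon region), and the phosphatase gene *Ptpn2* (-3.04, on 4 flox/flox input reads). The phosphatase genes *Ptpn1* (-0.30, -1.23 to 0.63) and *Ptpn11* (0.67, -0.08 to 1.42) had intervals that included 0. The input of all 7 was higher in BKO iBAT (against 75.1% of all genes), with a median log2 ratio of 0.94, beside 0.81 over all genes.

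Of 11 effectors downstream of the adiponectin receptors 5 had a region, all with lower enrichment (70.3% of all genes), 4 at least 2-fold (56.0%), and a median log2 ratio of -2.81. The median was -1.11 when the region with the most input reads stood for each gene. *Stk11*, which encodes the AMPK kinase LKB1, had -2.81 (-3.23 to -2.38) and *Prkab1*, the β1 subunit of AMPK, -1.11 (-1.53 to -0.69), each in a region that also lies over a second gene, that of *Stk11* with its center labelled intergenic. The values of *Prkab2* (-4.23, over 2 genes), *Ppara* (-5.26) and *Sirt1* (-0.73, -2.46 to 0.99) rest on 4, 0 and 6 flox/flox input reads. The last-exon region of *Ppara*, with 249 and 270 input reads, had -0.79 (-1.20 to -0.38), and the other region of *Prkab2* had 0.12 (-1.62 to 1.85). No region was listed for *Prkaa1* or *Prkaa2*, the catalytic subunits of AMPK.

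The proteins that fold and sort adiponectin in the endoplasmic reticulum and Golgi were lower in enrichment in all 5 cases with a region, out of 10 genes (70.3% of all genes), each at least 2-fold (56.0%), with a median log2 ratio of -1.87. The chaperone gene *Hspa5* had the largest difference, -3.02 (-3.27 to -2.77), from a fold enrichment of 25.6 to 3.16. Its IP log2 ratio was -0.28 and its input log2 ratio 2.74, so most of the difference lay in the input. *Pdia3* (-2.65), *Sdf4* (-1.87), *P4hb*, a disulfide isomerase gene (-1.65), and *Gga1* (-1.12, -2.21 to -0.03) followed. All 5 genes had a lower IP (58.1% of all genes) and a higher input level (75.1%). The log2 input ratios of *Sdf4* (0.53), *P4hb* (0.48) and *Gga1* (0.34, -0.63 to 1.31) were below the median of 0.81 over all genes.

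Relatives of adiponectin and resistin varied more. Of 15 genes 8 had a region, 6 with lower (70.3% of all genes) and 2 with higher enrichment (29.7%), and the median log2 ratio was -1.19. Over the 4 genes with 20 or more input reads per genotype, 2 were lower and the median was 0.30. The 3 chains of complement C1q, which share the globular domain of adiponectin and are made by macrophages, did not move together. In the 3′-UTR *C1qa* had -1.78 (-2.11 to -1.45), *C1qb* -0.11 (-0.37 to 0.14) and *C1qc* 0.87 (0.48 to 1.26). The last exon of *C1qc*, its most enriched region, had 1.48 (1.0 to 1.96). Intervals included 0 at exon 2 of *C1qa* (-0.68, -1.82 to 0.46) and of *C1qc* (0.25, -0.62 to 1.11). That of the *C1qb* 5′-UTR region (1.38, -0.39 to 3.14) did too. *C1qtnf9*, an adiponectin paralog that adipocytes secrete, had 0.71 (0.41 to 1.01) in a region over 2 genes. *Retnla*, the resistin-like gene of macrophages and adipose tissue, had -1.58 (-2.95 to -0.21), with 10 flox/flox and 309 BKO input reads and a log2 input ratio of 4.22, while its exon 2 region had 0.18 (-1.19 to 1.54). *C1qtnf7* (-2.11, -6.43 to 2.22) had no flox/flox input read.

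Among 24 other factors that adipocytes secrete, 16 had a region, 9 with lower (70.3% of all genes) and 7 with higher enrichment (29.7%), at a median log2 ratio of -0.45. With the median of all regions subtracted, 7 were lower and 9 higher, at a median of 0.60. The input was higher in 14 of the 16 (10 at least 2-fold, against 43.3% of all genes), with a median log2 ratio of 1.57. *Cfd*, which encodes adipsin and is one of the most abundant adipocyte transcripts, had nearly equal fold enrichments of 1.40 and 1.26 at exon 2 (log2 ratio -0.15, -0.30 to -0.0036), on 1702 and 5033 input reads. *Angptl4*, an inhibitor of lipoprotein lipase, was lower at -3.34 (-3.52 to -3.16), *Rarres2*, the chemerin gene, at -3.42 (-4.40 to -2.43) in a region over 2 genes and at -1.76 (-2.27 to -1.24) in a deeper one, and *Serpinf1*, which encodes PEDF, at -1.50 (-2.0 to -1.0). *Vegfa*, which encodes an angiogenic growth factor, was higher at 0.53 (0.28 to 0.78), from a fold enrichment of 1.65 to 2.38, in 1 of its 3′-UTR regions. In the other, of similar depth, it was lower at -0.38 (-0.65 to -0.096), from 1.44 to 1.11.

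Of 13 transcription factors with known sites in adipokine gene promoters, 8 had a region, 5 with lower (70.3% of all genes) and 3 with higher enrichment (29.7%). *Rxra*, the partner of PPARγ, was lower at -2.71 (-3.09 to -2.32). *Cebpa*, which drives *Lep* and *Adipoq* in adipocytes, had higher enrichment at 0.69 (0.57 to 0.82), from a fold enrichment of 1.85 to 3.0. Its input was lower, at a log2 ratio of -0.42 (-0.52 to -0.31). *Cebpb* was at -0.15 (-0.29 to -0.0027) in enrichment, with a log2 input ratio of -1.09. *Creb1* was higher at 2.45 (1.16 to 3.74), on 24 and 22 input reads, and *Foxo1* was at -0.45 (-1.05 to 0.16) in its 3′-UTR and at 1.20 (0.77 to 1.63) in a deeper exon 2 region. The value of *Pparg* (-5.31, -11.15 to 0.52) is that of an intron 2 region without an input read in either genotype. Its last-exon region, with 468 and 926 input reads, had -2.32 (-2.59 to -2.05), from a fold enrichment of 5.72 to 1.15. These lists stand beside the counts over all genes as a description, and no test was made of any of them.

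**Figure D5:**
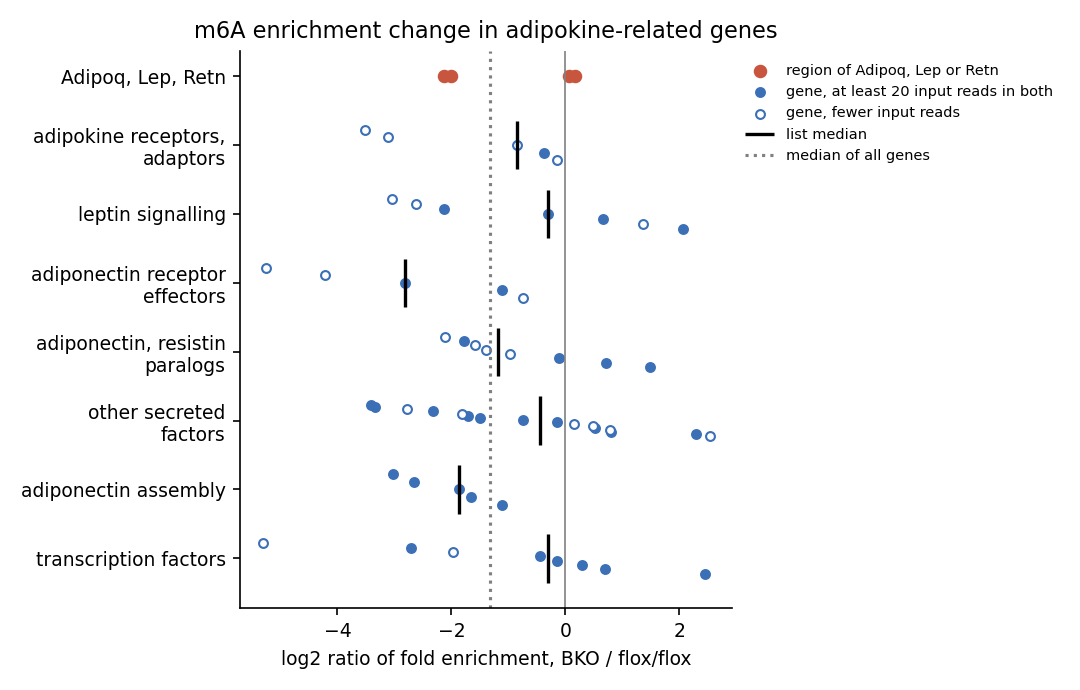
log2 ratio of fold enrichment, BKO over flox/flox (x axis), of the 4 adipokine regions (red) and of the genes of 7 lists at their most enriched region (blue, open where either genotype had fewer than 20 input reads), with list medians as black bars and the median of all genes, -1.31, dotted. The receptor, effector and assembly lists hold only values below 0, and the other lists lie on both sides.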

How the data were processed

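m6A RNA immunoprecipitation and input libraries of iBAT poly(A)+ RNA had been sequenced for 1 IP and 1 input sample per genotype. Per the study's methods and the submitters' processing notes, reads were mapped to GRCm38 with BWA 0.7.12-r1039 and peaks called with MACS2 2.1.0. How peaks were merged across genotypes, the strand setting of the counting and whether coordinates count from 0 or 1 were not stated by any source used here, and coordinates are printed as the table has them. The deposited table held, for each region and library, a raw read count. The RPM values had been computed by the authors from the count plus 1 and the library total, and each total was recovered from that relation. The fold enrichment was deposited as the ratio of IP to input RPM of a genotype. A deposited log2 column holds the authors' own comparison of the genotypes and was not used, other than to check that the recomputed values have the same definition. The columns named CON and KO were taken as the flox and BKO samples.

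From these values log2 ratios of BKO over flox/flox were formed for the IP, the input and the enrichment. Intervals of 95% were computed on the log scale from counts plus 1, with 2 reads taken as 1 fragment, and were checked on simulated counts. They cover counting error only, and with 1 library per group no test across replicates was possible. For list and marker genes with several regions, the most enriched one was taken. Named in the text were all regions of the 3 genes, for each list the highest, the lowest and up to 4 more members by input depth, and the 3 regions nearest to each adipokine region. A gene that this rule would name is not reported here. The members and the gene lists were chosen with earlier results of these data known. Promoter windows came from RefSeq (GRCm38.p6), while peak sequences were not analysed here. Alternatives changed the scaling, the added count, the filter on input reads and the region that stood for a gene. Scripts ran under Python 3.11.15 (pandas 2.3.3, NumPy 2.4.6, figures by Matplotlib 3.10.9).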

Additional observations from a re-analysis of the deposited data

How the results depend on the processing

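The scaling between libraries moved most values. With the median of all regions subtracted, the log2 enrichment ratio was -1.07 at the last exon of *Adipoq*, 1.22 at its 5′ region and 1.12 for *Retn*, and with the median of regions of at least 20 input reads it was -1.06, 1.24 and 1.14. The 5′ regions thus stood above the median region under either centring. The centred input ratio was -0.034 at the last exon of *Adipoq*, the only reversal, 0.55 at its 5′ region and 0.75 for *Retn*, and the centred IP ratio was -1.08, 1.79 and 1.90 in the same order. With 1 added to each fold enrichment, the last exon of *Adipoq* had a log2 ratio of -1.55. The ratios of *Lep* moved by less than their wide counting intervals under each alternative. Of the adipokine regions that held 20 or more input reads per genotype, 1 of 3 had lower enrichment, since *Lep* was left out. That filter also left fewer list genes. Enrichment was lower in 2 of 2 receptor and adaptor genes, 3 of 3 adiponectin receptor effectors and 2 of 4 paralogs, and higher in 4 of 11 other secreted factors. Of all regions with that depth, 70.4% were lower and 29.6% higher. With centring, receptor and adaptor genes were lower in 2 of 5 cases and higher in 3. Effectors were higher in 1 of 5 cases and paralogs in 4 of 8. Transcription factors were lower in 3 of 8 cases and higher in 5. By construction this centring puts as many regions above 0 as below, and centred shares over all genes were not computed. With the mean over all regions of a gene, 1 receptor gene had higher enrichment. Counting each read as 1 fragment narrowed the intervals, so that the enrichment ratio of the *Adipoq* 5′ region (0.039 to 0.30) no longer included 0. Subtracting the median input ratio of brown and general adipocyte genes took the last exon of *Adipoq* only from 0.768 to 0.773. A shift of that size could not move any input ratio beyond its interval, so it is no check. Those genes themselves ran from -1.51 (*Dio2*) to 3.42 (*Fabp4*). Both of these alternatives were chosen after seeing the data. No paired analysis was possible because each group had 1 library, and for the same reason none could be left out. With 8 flox/flox input reads, depth limits *Lep* most.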
